A study of Mus musculus with 40 samples.

Results

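The genes described here are 46 genes of DNA replication, taken by symbol from a stated list, with no measured value in the rule, out of 23328 gene symbols in the deposited tables. The cells were mouse thymocytes at the early T-cell precursor stage (ETP) and at the later double-negative 3 stage (DN3). By role the genes comprise the 6 subunits of the replicative helicase (Mcm2 to Mcm7), 4 genes of origin recognition and licensing (Orc1, Orc6, Cdc6, Cdt1), 6 genes of helicase activation (Mcm10, Cdc45, Gins1 to Gins4), 7 of the sliding clamp and its loaders (Pcna, Rfc1 to Rfc5, Dscc1), 9 of primase and the polymerases (Pola1, Pola2, Prim1, Prim2, Pold1, Pold2, Pold3, Pole, Pole2), 4 of Okazaki-fragment and strand processing (Lig1, Fen1, Rnaseh2a, Ung), the 3 subunits of the single-strand binding protein RPA (Rpa1, Rpa2, Rpa3), 4 that copy chromatin and DNA methylation onto new DNA (Chaf1a, Chaf1b, Uhrf1, Dnmt1), and 3 of fork protection and histone supply (Clspn, Tipin, Slbp). All 46 were present in every table and passed the filter on low counts in every comparison, and the lowest count of any of them in any library was 22.

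Before S phase, the origin recognition complex, Cdc6 and Cdt1 load the MCM helicase onto DNA. Cdc45, the GINS complex and Mcm10 then turn the loaded helicase on, and the replicative polymerases copy both strands with the clamp Pcna, after which Fen1 and Lig1 join the fragments of the lagging strand. Transcripts of many of these genes rise as cells pass from G1 into S phase under E2F transcription factors, so in a cell population their level follows the share of cells in cycle. Thymocytes proliferate in the precursor stage, and DN3 cells are the stage at which the beta chain of the T-cell receptor is rearranged and Notch1 signalling is strong.

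RNA was sequenced from 40 libraries in 12 groups of C57BL/6 mice, and the study asked what changes when Zmiz1, a co-activator that binds Notch1, is deleted or when Notch1 is blocked. DeltaMxCre libraries came from MxCreZmiz1f/f mice and their MxCre controls from mice with the Cre alone, both sorted 8 weeks after 5 injections of 40 mcg pI-pC given every 2 days (3 mice per group). After pI-pC, the Mx1 promoter that drives this Cre is active in many tissues. DeltaTamCre libraries came from Rosa26CreERT2Zmiz1f/f mice and their TamCre controls from mice with the ubiquitous, tamoxifen-activated Cre alone, both taken 43 to 44 h after 0.2 mg/g tamoxifen (4 mice per group). AntiNRR libraries came from mice given a blocking antibody to the Notch1 negative regulatory region, and IgG libraries from mice given control antibody, both at 10 mg/kg and 24 h, with 3 libraries per group and no number of mice in the labels. The ages of the mice are not given in the sources used here. The p-values below measure the spread between these libraries.

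The pI-pC and antibody libraries held 9456818 to 23962395 estimated counts each. After tamoxifen, DN3 libraries held 48127197 to 91659598 and ETP libraries 17418638 to 30975324, and no library was tested against one of another table. The labels give both stages a CD44+CD25- phenotype, with cKit+ added for ETP. In the pI-pC and antibody table Cd44 ran from 0.536 to 6.94 CPM (counts scaled to a common library size) in DN3 libraries and from 47.9 to 193 CPM in ETP libraries. Zmiz1 was lower in every deleted library than in every control of its pair (113 to 129 against 286 to 349 CPM in DN3 and 58.7 to 114 against 157 to 319 CPM in ETP after pI-pC), and the AntiNRR ETP 3 library, which received no deletion, held 97.7 CPM. Several libraries stood apart in the level of the 46 genes. MxCre DN3 3 had the highest value of its group for 45 of the 46, MxCre ETP 3 for 42, IgG ETP 3 for 42, AntiNRR ETP 2 for 40, DeltaMxCre DN3 1 for 39, and AntiNRR DN3 3 and DeltaTamCre ETP 2 for 38 each. DeltaTamCre ETP 1 had the lowest value of its group for 41, and MxCre ETP 1 and AntiNRR ETP 1 for 37 each. In the 6 pairs and the stage contrasts, medians and counts of the 46 genes that moved by over 1.5 times when 1 library was left out are given with the value without it, and in the tests between effects the highest and lowest are given. Exons of 17 of the genes overlap those of another annotated gene, a protein-coding one for 12 of them, and the sources used here do not state whether reads were counted by strand.

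The 4 genes called in the comparison that follows are shown first with the DNA before their start sites (300 bases, 250 before and 50 after each RefSeq start, RefSeq sequence on GRCm38.p6), because the letters bound by E2F factors are the best-known feature of replication promoters. Mcm3 is on chr1:20802968-20820312 (minus strand), Ung on chr5:114130386-114139323, Chaf1a on chr17:56040439-56072289 and Uhrf1 on chr17:56303321-56323486 (all plus strand, GRCm38, GENCODE M21), and 231032 bases separate Chaf1a from Uhrf1. Capitals mark the letters searched for, TTTCCCGC, TTTCGCGC, TTTGCCGC and TTTGGCGC, read on both strands. The windows are chr1:20820263-20820562 (minus) for Mcm3, chr5:114130185-114130484 (plus) for Ung, chr17:56040166-56040465 (plus) for Chaf1a, and chr17:56303087-56303386 and chr17:56304063-56304362 (plus) for the first and second starts of Uhrf1.
Mcm3: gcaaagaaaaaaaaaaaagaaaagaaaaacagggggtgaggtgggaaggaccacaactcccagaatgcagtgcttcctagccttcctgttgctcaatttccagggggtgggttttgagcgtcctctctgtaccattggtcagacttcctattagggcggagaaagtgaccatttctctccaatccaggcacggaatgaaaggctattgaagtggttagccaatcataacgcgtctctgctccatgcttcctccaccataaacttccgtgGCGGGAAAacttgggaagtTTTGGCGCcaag
Ung: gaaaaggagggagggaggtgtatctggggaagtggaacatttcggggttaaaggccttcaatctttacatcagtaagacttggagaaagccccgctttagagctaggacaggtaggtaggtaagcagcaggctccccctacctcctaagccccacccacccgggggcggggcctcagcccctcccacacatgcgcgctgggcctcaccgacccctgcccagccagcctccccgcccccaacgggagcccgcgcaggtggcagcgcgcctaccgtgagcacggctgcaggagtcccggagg
Chaf1a: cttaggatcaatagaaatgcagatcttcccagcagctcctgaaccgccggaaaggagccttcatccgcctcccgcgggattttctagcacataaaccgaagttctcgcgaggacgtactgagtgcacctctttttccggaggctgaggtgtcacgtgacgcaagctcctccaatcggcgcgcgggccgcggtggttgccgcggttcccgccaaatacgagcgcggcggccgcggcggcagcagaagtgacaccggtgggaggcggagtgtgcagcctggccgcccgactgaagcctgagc
Uhrf1, first start: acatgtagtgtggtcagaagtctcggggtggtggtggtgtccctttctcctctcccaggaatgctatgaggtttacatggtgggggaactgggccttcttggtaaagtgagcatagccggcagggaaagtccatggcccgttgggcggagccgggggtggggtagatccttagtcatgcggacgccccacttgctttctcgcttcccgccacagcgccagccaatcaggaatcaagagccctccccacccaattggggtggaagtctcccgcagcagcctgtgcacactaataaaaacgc
Uhrf1, second start: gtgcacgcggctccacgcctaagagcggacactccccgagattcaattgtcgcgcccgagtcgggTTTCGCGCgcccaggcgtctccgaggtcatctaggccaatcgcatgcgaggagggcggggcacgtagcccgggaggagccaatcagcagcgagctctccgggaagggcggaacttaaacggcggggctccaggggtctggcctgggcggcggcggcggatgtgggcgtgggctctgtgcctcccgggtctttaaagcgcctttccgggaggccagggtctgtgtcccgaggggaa

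The Mcm3 window holds 2 such matches, at positions 19 and 38 relative to the annotated start, and the second Uhrf1 window holds 1, at position -185. The windows of Ung and Chaf1a and the first Uhrf1 window hold none of these letters, which says only that they are not in these windows. Across the 37 of the 46 genes with a promoter in the table, 17 (45.9%) hold at least 1 match, against 704 of all 27025 genes (2.61%). The letters CCAAT, read on both strands, occur in 25 of the 37 (67.6%) and in 41.1% of all genes. A match describes the sequence and does not show that a factor binds there.

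In DN3 cells 24 h after Notch1 was blocked, 4 of the 46 genes fell and none rose (edgeR quasi-likelihood test, Benjamini-Hochberg adjusted p under 0.05, which is the rule for every call below). They were Uhrf1, Mcm3, Ung and Chaf1a, and the Wald test of DESeq2 also called 4 lower (3.61% of all genes lower). In this comparison 5.61% of all 12658 genes tested were called, 2.96% lower. The log2 fold change of AntiNRR DN3 over IgG DN3 was below 0 for 45 of the 46 genes, with a median of -0.34, while the median of all genes tested was -0.01. In bulk samples, fewer cells in S phase and less of these RNAs per cell cannot be told apart.

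Uhrf1 encodes the protein that recognises hemimethylated DNA at the fork and brings Dnmt1 to it. It had 510.4, 527 and 594 CPM in the AntiNRR DN3 libraries, against 789, 759 and 736 CPM in the IgG DN3 libraries (544 ± 44.4 and 761 ± 26.7, SD, n = 3 each). The log2 fold change was -0.50 (SE 0.0907, edgeR adjusted p = 0.0012). The groups did not overlap, and this call held when any 1 of the 6 libraries was left out. Mcm3, a subunit of the replicative helicase, had 135, 172 and 198 CPM in AntiNRR DN3, against 265, 268 and 216 CPM in IgG DN3 (168 ± 31.9 and 250 ± 29.1). Its log2 fold change was -0.58 (SE 0.128, edgeR adjusted p = 0.00639), and the highest blocked library stayed below the lowest control. The adjusted p became 0.0511 without IgG DN3 2 and 0.13 when the 4 DN3 groups of the table shared 1 estimate of the spread.

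Ung encodes uracil-DNA glycosylase, which removes uracil from newly copied DNA. It had 8.80, 13.5 and 16.2 CPM in AntiNRR DN3, against 31.0, 25.6 and 24.1 CPM in IgG DN3 (12.8 ± 3.73 and 26.9 ± 3.63). Its log2 fold change of -1.09 was the lowest of the 46 (SE 0.285, edgeR adjusted p = 0.0241), and again no blocked library reached a control. Chaf1a, the large subunit of the histone chaperone CAF-1, had 30.6, 44.2 and 44.0 CPM in AntiNRR DN3, against 65.0, 61.1 and 59.5 CPM in IgG DN3 (39.6 ± 7.82 and 61.9 ± 2.87). It fell by 0.66 on the log2 scale (SE 0.183, edgeR adjusted p = 0.0335), without overlap, and part of its exon sequence overlaps Ubxn6 on the opposite strand. The calls of Ung and Chaf1a were less stable: leaving out any 1 IgG DN3 library or AntiNRR DN3 1 ended both calls, as did leaving out AntiNRR DN3 2 for Ung (edgeR adjusted p = 0.0531).

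**Figure D1:**
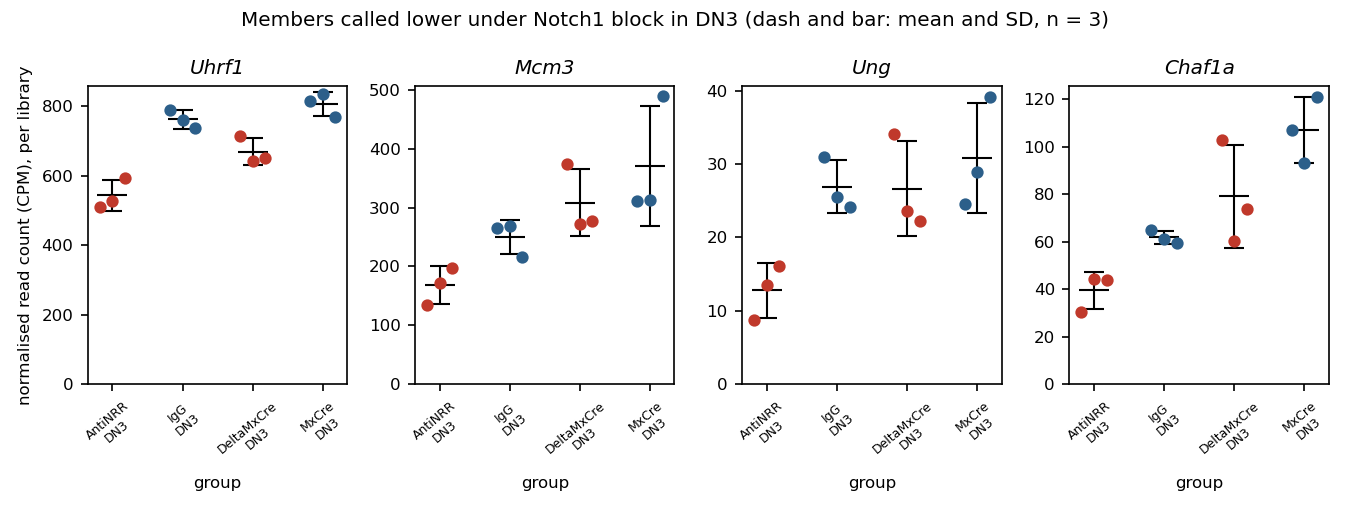
Level of Uhrf1, Mcm3, Ung and Chaf1a in CPM, 1 point per library with the group mean and SD, in AntiNRR DN3, IgG DN3, DeltaMxCre DN3 and MxCre DN3 (3 libraries each). In all 4 genes every AntiNRR DN3 point lies below every IgG DN3 point, and Ung runs from 8.80 to 16.2 CPM in AntiNRR DN3 and from 24.1 to 31.0 CPM in IgG DN3.

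How many members passed depended on which libraries entered. The 3 AntiNRR DN3 libraries were unequal: their mean log2(CPM + 1) over the 46 genes was 5.10, 5.30 and 5.72, against 5.85, 5.83 and 5.71 in IgG DN3. AntiNRR DN3 1 had the lowest value of its group for 33 of the genes, and AntiNRR DN3 3 reached the level of IgG DN3 3. Without AntiNRR DN3 3 the count was 16 lower and the median -0.52. Without AntiNRR DN3 1 it was 2, and without AntiNRR DN3 2 it was 3. Leaving out IgG DN3 1, 2 or 3 gave 2, 1 and 2.

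Beyond the 4 called genes, the licensing factors had the lowest median of the 9 roles, and the helicase subunits other than Mcm3 did not pass. Mcm7 and Mcm2 had log2 fold changes of -0.36 and -0.33 (edgeR adjusted p = 0.0786 and 0.0837). Mcm6, Mcm5 and Mcm4 were at -0.31, -0.40 and -0.25 (edgeR adjusted p = 0.12, 0.172 and 0.353), and these 5 subunits overlapped between the groups. The 6 helicase subunits had a median of -0.35. Gins2, a subunit of the GINS complex, had 7.92, 10.8 and 16.0 CPM in AntiNRR DN3, against 21.2, 22.0 and 21.3 CPM in IgG DN3, a log2 fold change of -0.91 (edgeR adjusted p = 0.0968). Orc1, the subunit that completes the origin recognition complex, had 8.80, 15.2 and 19.0 CPM in AntiNRR DN3, against 25.005, 27.4 and 23.5 CPM in IgG DN3 (-0.84, edgeR adjusted p = 0.111). Neither Gins2 nor Orc1 overlapped between the groups, though neither passed the test. The licensing group had a median of -0.75 and the clamp group one of -0.18. Pcna, the clamp itself, had 177, 181 and 272 CPM in AntiNRR DN3, against 235, 227 and 233 CPM in IgG DN3, with AntiNRR DN3 3 above every control. Rfc2, a clamp loader subunit, was the single gene above 0, at 0.01.

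Every AntiNRR DN3 library lay below every IgG DN3 library for 13 of the 46 genes, where 11% of all genes tested did so in that direction. The 13 were Mcm3, Orc1, Cdt1, Gins2, Rfc3, Dscc1, Pola1, Pole2, Rnaseh2a, Ung, Chaf1a, Uhrf1 and Tipin, so they came from 8 of the 9 roles, with RPA absent. No member was separated in the other direction. At an unadjusted p under 0.05, 17 members were lower, against 8.66% of all genes.

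Genes that supply nucleotides were called lower in the blocked DN3 cells as well, and no mitosis gene was called. Of 19 nucleotide-supply genes, 8 fell and none rose, with a list median of -0.54. They were Mthfd1 (-0.79, edgeR adjusted p = 0.000797) and Shmt1 (-0.93), which carry 1-carbon units for nucleotide synthesis, Shmt2 (-0.54), Gart (-0.61) and Impdh2 (-0.62) of purine synthesis and its 1-carbon supply, Cad (-0.71) and Umps (-0.77) of pyrimidine synthesis, and Dut (-0.71), which clears dUTP. Ung and Dut, which both act against uracil in DNA, both fell. Of 35 other replication factors tested, only Exo1, an exonuclease of mismatch repair, fell (-1.35, edgeR adjusted p = 0.0126), and the list median was -0.34. Among 13 E2F and pocket-protein genes, only Tfdp1, a partner with which many E2F proteins bind DNA, fell (-0.45, edgeR adjusted p = 0.0158), with a median of 0.03. None of 25 mitosis genes was called by edgeR or DESeq2 (1, higher, at an unadjusted p under 0.05), and 17 of them lay above 0 (median 0.05). The mitosis values turned on single blocked libraries: without AntiNRR DN3 3 the median was -0.59, with 24 of 25 below 0 and 10 lower at an unadjusted p under 0.05, and without AntiNRR DN3 1 it was 0.39. Without AntiNRR DN3 2 the mitosis median was 0.27 and 1 gene was called higher. The nucleotide-supply count ran from 5 to 9 lower when 1 library was left out, and was 5 without AntiNRR DN3 2 or IgG DN3 2. Myc, a transcription factor that Notch1 activates in thymocytes, fell by 0.99 on the log2 scale (edgeR adjusted p = 0.000253). Its log2 fold change was also below 0 in the other pairs, at -0.84 in DN3 after pI-pC and -0.43 in DN3 after tamoxifen. In ETP it was -0.999 after the block, -0.316 after tamoxifen and -0.098 after pI-pC. None of these passed in edgeR, while DESeq2 called Myc lower in DN3 after pI-pC and after tamoxifen (adjusted p = 0.0209 and 0.0096).

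Markers of cell type and of RNA content differed in the same comparison. The summed level of 8 DN3 markers was 7374 to 8275 CPM in AntiNRR DN3 and 12084 to 12252 CPM in IgG DN3, with 5 of the 8 called lower (Ptcra, Rag1, Hes1, Notch3, Il2ra), and the ETP marker Kit rose (0.84). The 8 ETP markers summed to 197 to 237 CPM in AntiNRR DN3 and 137 to 157 CPM in IgG DN3. Most of each sum was Kit, with 174, 153 and 209 CPM in AntiNRR DN3 and 91.2, 96.7 and 109 CPM in IgG DN3. Cd44 overlapped, at 2.12 to 3.75 CPM in AntiNRR DN3 and 2.31 to 2.74 CPM in IgG DN3. Natural killer and innate lymphoid markers, of which 2 of 7 averaged at least 1 CPM in either group, summed to 222 to 249 CPM in AntiNRR DN3 and 116 to 143 CPM in IgG DN3, nearly all from Gzma (217 ± 13.3 CPM in AntiNRR DN3 and 118 ± 11.8 CPM in IgG DN3, SD), while Klrd1, Ncr1 and Klrb1c were at 0 in every library of both groups. Double-positive thymocyte markers summed to 2269 to 2563 CPM in AntiNRR DN3 and 2085 to 2543 CPM in IgG DN3. Gamma-delta T markers, of which 2 of 5 averaged at least 1 CPM in either group, summed to 94.8 to 115 CPM in AntiNRR DN3 and 57.0 to 70.6 CPM in IgG DN3, mostly from Sox13 (99.0 ± 10.1 CPM in AntiNRR DN3 and 54.8 ± 9.43 CPM in IgG DN3, SD), with Il17a at 0 in every library of both groups. Rn45s, the precursor of ribosomal RNA, took 4.77% to 6.80% of the counts in AntiNRR DN3 and 2.75% to 3.74% in IgG DN3. The part of these values in the fall of the replication genes was not tested. Summed mitosis genes gave 543, 841 and 2055 CPM in AntiNRR DN3, against 984, 1122 and 1041 CPM in IgG DN3, so the blocked libraries held both the lowest and the highest value.

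**Figure D2:**
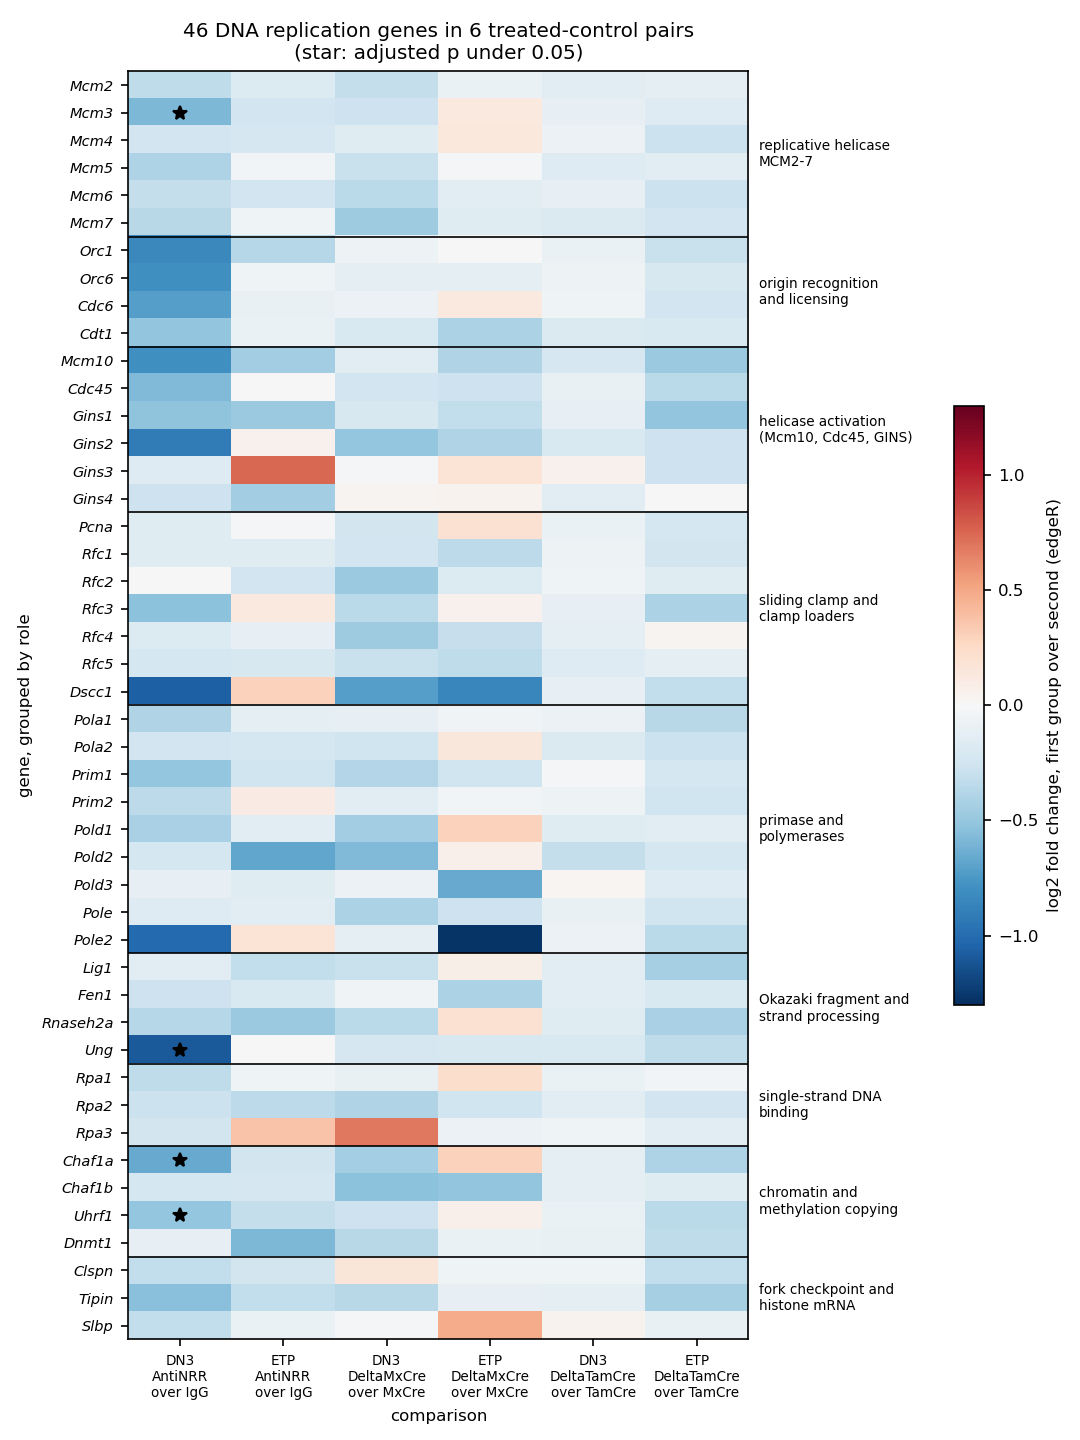
Log2 fold change of the 46 genes (rows, by role) in the 6 pairs (columns), treated or deleted over control, with a star where edgeR called the gene. The 4 stars are all in DN3 cells after the Notch1 block, whose median is -0.34, and the other 5 columns have medians between -0.26 and -0.09.

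Deletion of Zmiz1 by pI-pC in DN3 cells gave no call among the 46 genes, by edgeR or by DESeq2, where edgeR called 1.44% of all 12675 genes and DESeq2 4.16%. At an unadjusted p under 0.05, 10 were lower (7.83% of all genes) and 1, Rpa3, was higher (8.28%), and the lowest adjusted p was 0.142. The median log2 fold change of DeltaMxCre DN3 over MxCre DN3 was -0.26, with 43 of 46 below 0, and that of all genes was -0.01. Pold2, a small subunit of polymerase delta, had 35.9, 30.5 and 35.7 CPM in DeltaMxCre DN3, against 43.6, 48.1 and 60.3 CPM in MxCre DN3 (-0.57, SE 0.185, edgeR adjusted p = 0.142). Mcm7 had 492, 420.0 and 424 CPM in DeltaMxCre DN3, against 519.5, 544 and 772 CPM in MxCre DN3 (-0.46, SE 0.154, edgeR adjusted p = 0.156). In both genes the groups were separate, and MxCre DN3 3 was the highest library. Chaf1b, the middle subunit of CAF-1, had 49.2, 37.3 and 38.0 CPM in DeltaMxCre DN3, against 50.05, 50.4 and 80.2 CPM in MxCre DN3 (-0.54, SE 0.206, edgeR adjusted p = 0.215). Rfc2 had 40.3, 41.4 and 25.9 CPM in DeltaMxCre DN3, against 44.5, 49.3 and 56.9 CPM in MxCre DN3 (-0.49, SE 0.204, edgeR adjusted p = 0.251). Uhrf1, the member with the lowest p after the Notch1 block, had 714, 643 and 649.6 CPM in DeltaMxCre DN3, against 814, 835 and 767 CPM in MxCre DN3, again without overlap (-0.27, edgeR adjusted p = 0.285). In all, 6 members were separated downward (Mcm7, Rfc2, Dscc1, Pold2, Chaf1b, Uhrf1), where 10.5% of all genes were.

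The downward median after pI-pC in DN3 cells came with 1 control library. Without MxCre DN3 3 it was 0.00, and without MxCre DN3 2 it was -0.39. That library also had the highest sum of mitosis genes, 5786 CPM against 2689 and 1916 CPM in the other MxCre DN3 libraries, and the lowest share of counts in Malat1, a nuclear non-coding RNA, 0.324% against 0.711% and 0.685%. The DeltaMxCre DN3 libraries had 2774 to 3572 CPM of mitosis genes and 0.961% to 1.33% of Malat1. Of the 25 mitosis genes, edgeR called none in this pair, and 16 lay below 0 (median -0.09). Without MxCre DN3 3 the mitosis median was 0.53, with 0 genes below 0 and 4 called higher. Double-positive thymocyte markers summed to 1782 to 2314 CPM in DeltaMxCre DN3 and 1334 to 1485 CPM in MxCre DN3, with 4 of 8 higher at an unadjusted p under 0.05 and 1, Themis, called. Cd8a, a co-receptor gene in that list, overlapped, at 5.85 to 8.01 CPM in DeltaMxCre DN3 and 3.04 to 9.33 CPM in MxCre DN3. Mature T markers summed to 831 to 1174 CPM in DeltaMxCre DN3 and 588 to 755 CPM in MxCre DN3, with 3 of 6 tested higher at an unadjusted p under 0.05 and 2, Cd5 and Ms4a4b, called. The Rn45s share was 4.71% to 5.07% in DeltaMxCre DN3 and 6.76% to 8.82% in MxCre DN3. Neither these marker sums nor the Rn45s share overlapped between the groups, and their part in the values of the 46 genes was not tested. With the Malat1 share as a covariate Mcm7 and Chaf1b turned to 0.11 and 0.21. The Malat1 share did not overlap between these groups, so the fit cannot well separate it from the deletion. Of the 19 nucleotide-supply genes, edgeR called only Impdh2 (-0.62, adjusted p = 0.0413), and DESeq2 called 4. No nucleotide-supply gene was called by edgeR without MxCre DN3 1, MxCre DN3 2, DeltaMxCre DN3 2 or DeltaMxCre DN3 3.

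In ETP after pI-pC no member was called by edgeR or DESeq2, where edgeR called 0.0416% of all 12010 genes and DESeq2 0.719%. The lowest adjusted p was 0.689, and at an unadjusted p under 0.05, 2 members were lower (2.85% of all genes) and none was higher. The deleted gene itself, Zmiz1, was not called by edgeR in this pair (log2 fold change -1.41, SE 0.302, edgeR adjusted p = 0.256). DESeq2 called it lower (adjusted p = 0.00269). The lack of an edgeR call here therefore does not show that a gene was unchanged. The median of DeltaMxCre ETP over MxCre ETP was -0.09, with 30 of 46 below 0. Pole2, a subunit of the leading-strand polymerase epsilon, had 22.7, 12.0 and 13.2 CPM in DeltaMxCre ETP, against 23.1, 34.7 and 58.8 CPM in MxCre ETP (-1.28, SE 0.433, edgeR adjusted p = 0.689). Its groups were separated, as in 6.46% of all genes in that direction, by a narrow gap between DeltaMxCre ETP 1 and MxCre ETP 1. Pold3 had 66.3, 71.0 and 66.2 CPM in DeltaMxCre ETP, against 61.6, 124 and 136 CPM in MxCre ETP (-0.65, SE 0.285, edgeR adjusted p = 0.857). Slbp, which binds the stem-loop of histone messages, had 150.5, 123 and 155 CPM in DeltaMxCre ETP, against 78.1, 111 and 119 CPM in MxCre ETP (0.48, SE 0.23, edgeR adjusted p = 0.902), with every deleted library above every control, as in 6.1% of all genes. Chaf1b had 45.9, 35.2 and 55.7 CPM in DeltaMxCre ETP, against 41.3, 67.2 and 87.3 CPM in MxCre ETP (-0.51, SE 0.313, edgeR adjusted p = 0.982), and the groups overlapped. The median was -0.29 without MxCre ETP 1 and -0.19 without MxCre ETP 2. It turned to 0.20 without MxCre ETP 3, a library with 0.0777% of Malat1 where the other MxCre ETP libraries had 0.422% and 0.484%. Summed DN3 markers were 7238 to 7998 CPM in DeltaMxCre ETP and 3301 to 3776 CPM in MxCre ETP, and natural killer and innate lymphoid markers 69.9 to 121 CPM in DeltaMxCre ETP and 157 to 325 CPM in MxCre ETP. Summed ETP markers were 370 to 457 CPM in DeltaMxCre ETP and 663 to 912 CPM in MxCre ETP. Of these 8 markers, 7 were lower at an unadjusted p under 0.05. Their part in these values was not tested.

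In ETP after the Notch1 block edgeR called no gene of 12568 (0%), and DESeq2 called 0.223% of all genes and no member. Pold2 was the 1 member lower at an unadjusted p under 0.05, as were 2.86% of all genes. It had 29.3, 31.0 and 42.1 CPM in AntiNRR ETP, against 59.6, 43.7 and 60.2 CPM in IgG ETP (-0.68, SE 0.252, edgeR adjusted p = 0.789), without overlap. Dnmt1, the methyltransferase that copies methylation, had 279, 409 and 198 CPM in AntiNRR ETP, against 363, 341 and 626 CPM in IgG ETP (-0.59, SE 0.287, edgeR adjusted p = 0.938), and these overlapped. Gins4 had 26.8, 36.1 and 37.0 CPM in AntiNRR ETP, against 51.4, 38.6 and 46.3 CPM in IgG ETP (-0.45, SE 0.254, edgeR adjusted p = 0.952), with every blocked library lower, so that 2 members were separated downward, where 5.96% of all genes were. Rnaseh2a, the catalytic subunit of RNase H2, had 19.8, 51.4 and 26.4 CPM in AntiNRR ETP, against 47.4, 45.8 and 43.3 CPM in IgG ETP (-0.48, SE 0.318, edgeR adjusted p = 0.968), where AntiNRR ETP 2 was above every control. The median was -0.17, with 37 of 46 below 0. It was 0.17 without IgG ETP 3, -0.42 without AntiNRR ETP 2, -0.03 without AntiNRR ETP 1, -0.09 without AntiNRR ETP 3, -0.31 without IgG ETP 1 and -0.30 without IgG ETP 2. Summed DN3 markers were 1311 to 2623 CPM in AntiNRR ETP and 3677 to 5613 CPM in IgG ETP, and their part was not tested.

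**Figure D3:**
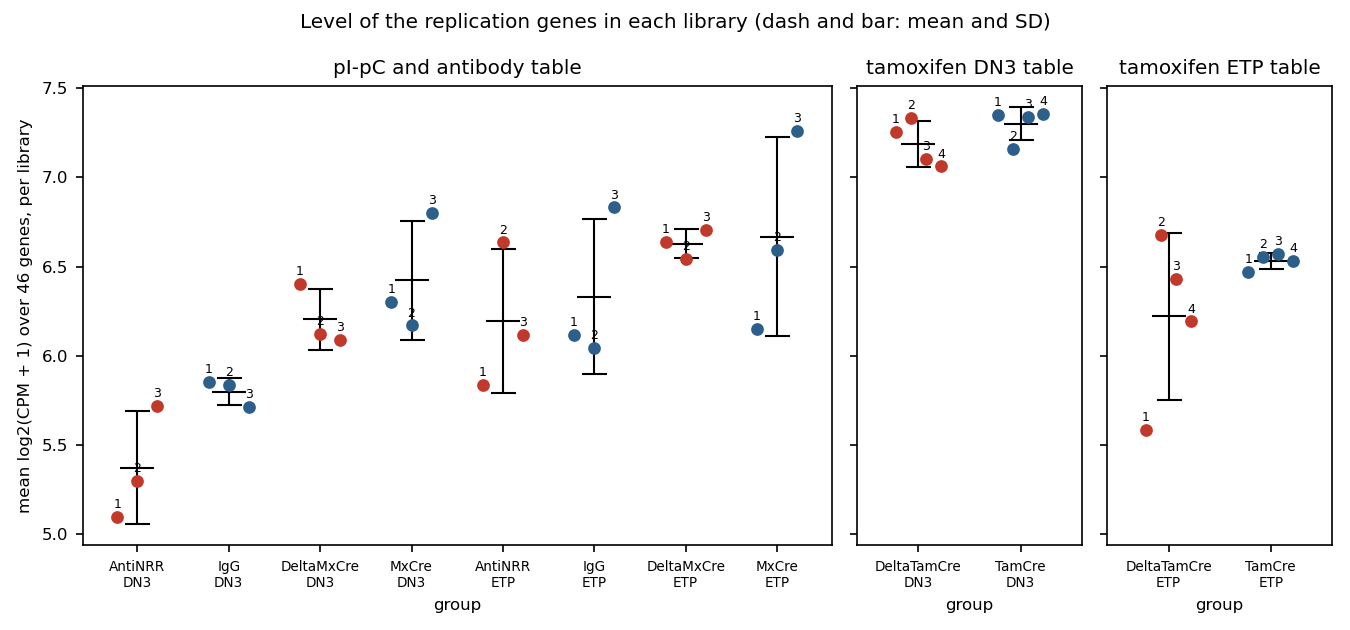
Mean log2(CPM + 1) over the 46 genes in each of the 40 libraries (points), with the mean and SD of each group, treated or deleted beside its control. The 3 AntiNRR DN3 libraries run from 5.10 to 5.72 and the IgG DN3 libraries from 5.71 to 5.85, and DeltaTamCre ETP 1, at 5.58, lies apart from the other tamoxifen ETP libraries.

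In ETP 43 to 44 h after tamoxifen edgeR called no gene of 12924 (0%), and DESeq2 called 0.0155% of all genes and no member. Zmiz1, the deleted gene, was thus not called by edgeR either (log2 fold change -1.13, edgeR adjusted p = 0.907). DESeq2 called it lower (adjusted p = 0.0076). At an unadjusted p under 0.05, 2 members were lower (2.3% of all genes) and none was higher. The median of DeltaTamCre ETP over TamCre ETP was -0.26, with 44 of 46 below 0, and that of all genes was 0.03. Pola1, the catalytic subunit of polymerase alpha, had 96.0, 152, 131 and 137 CPM in DeltaTamCre ETP, against 147, 158, 164 and 193 CPM in TamCre ETP (-0.36, SE 0.154, edgeR adjusted p = 0.907). Mcm10 had 42.3, 96.0, 91.2 and 78.0 CPM in DeltaTamCre ETP, against 115, 98.0, 117 and 101 CPM in TamCre ETP (-0.49, SE 0.214, edgeR adjusted p = 0.907). The groups were separate in Mcm10, and also in Dnmt1, where 2.19% of all genes were separated downward, and overlapped in Pola1. Tipin, a partner of Timeless at the fork, had 38.8, 86.5, 66.1 and 48.1 CPM in DeltaTamCre ETP, against 73.0, 89.6, 81.0 and 80.1 CPM in TamCre ETP (-0.44, SE 0.213). Chaf1a had 58.3, 127, 107 and 121 CPM in DeltaTamCre ETP, against 119, 135, 153 and 139 CPM in TamCre ETP (-0.41, SE 0.207). In all 4 genes DeltaTamCre ETP 1 was the lowest library.

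DeltaTamCre ETP 1 carried much of that shift. Its mean log2 level over the 46 genes was 5.58, against 6.68, 6.43 and 6.19 in the other DeltaTamCre ETP libraries and 6.47 to 6.57 in TamCre ETP. Its mitosis genes summed to 1679 CPM, against 3680 to 4049 CPM in the other DeltaTamCre ETP libraries and 3964 to 5457 CPM in TamCre ETP. Its Malat1 share was 1.27%, against 0.461%, 0.768% and 1.21% in DeltaTamCre ETP 2, 3 and 4 and 0.336% to 0.652% in TamCre ETP. Natural killer and innate lymphoid markers summed to 665 CPM in this library, against 49.6 to 86.6 CPM in the other DeltaTamCre ETP libraries and 94.4 to 346 CPM in TamCre ETP. Its mature T markers summed to 1394 CPM, against 599 to 730 CPM in the other DeltaTamCre ETP libraries and 627 to 864 CPM in TamCre ETP. Double-positive thymocyte markers were highest in DeltaTamCre ETP 4, at 2703 CPM. They summed to 508 to 1327 CPM in the other DeltaTamCre ETP libraries and 545 to 1401 CPM in TamCre ETP. Cd8a was 342 CPM in DeltaTamCre ETP 4, 16.9 to 131 CPM in the other DeltaTamCre ETP libraries and 10.2 to 178 CPM in TamCre ETP. The part of these values in the shift was not tested. Without DeltaTamCre ETP 1 the median over the 46 genes was -0.10, and without DeltaTamCre ETP 2 it was -0.42. None of the 25 mitosis genes was called by edgeR or DESeq2, and 4 were lower at an unadjusted p under 0.05. All 25 lay below 0, with a median of -0.36, and without DeltaTamCre ETP 1, 22 lay below 0, with a median of -0.14.

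In DN3 cells after tamoxifen, sequenced most deeply, no member was called by edgeR or DESeq2, where edgeR called 0.0827% of all 13298 genes and DESeq2 3.99%. At an unadjusted p under 0.05, 4 were lower, against 8.26% of all genes. The median SE of a member's log2 fold change was 0.103 here and 0.287 in ETP after pI-pC. The median of DeltaTamCre DN3 over TamCre DN3 was -0.11, with 43 of 46 below 0. Pold2 had 129, 150.2, 134 and 139 CPM in DeltaTamCre DN3, against 202, 147, 170.3 and 163 CPM in TamCre DN3 (-0.31, SE 0.0957, edgeR adjusted p = 0.184), and the groups overlapped through DeltaTamCre DN3 2 and TamCre DN3 2. Gins2 had 53.3, 58.4, 51.7 and 48.3 CPM in DeltaTamCre DN3, against 62.6, 55.3, 61.9 and 62.4 CPM in TamCre DN3 (-0.19, SE 0.0758, edgeR adjusted p = 0.254). Pola2, the second subunit of polymerase alpha, had 173, 185, 167 and 158 CPM in DeltaTamCre DN3, against 206, 173, 194 and 206 CPM in TamCre DN3 (-0.19, SE 0.0784, edgeR adjusted p = 0.279). Both overlapped. Gins4 had 66.8, 64.1, 63.6 and 60.1 CPM in DeltaTamCre DN3, against 71.2, 71.0, 71.0 and 68.7 CPM in TamCre DN3 (-0.15, SE 0.0606, edgeR adjusted p = 0.279), and was the single member with no overlap, where 5.81% of all genes were separated downward. The Malat1 share was 0.0320% to 0.0702% in DeltaTamCre DN3 and 0.0261% to 0.0408% in TamCre DN3. Without DeltaTamCre DN3 2 the median was -0.17, and without DeltaTamCre DN3 4 it was -0.06. Double-positive thymocyte markers summed to 1104 to 1166 CPM in DeltaTamCre DN3 and 963 to 1061 CPM in TamCre DN3, and natural killer and innate lymphoid markers to 228 to 253 CPM in DeltaTamCre DN3 and 296 to 315 CPM in TamCre DN3. Their part in these values was not tested.

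Across the 6 pairs, which share no control library, 19 of the 46 genes had a log2 fold change below 0 in every pair, 22 in 5 of 6, 3 in 4 and 2 in 3. In single pairs 45.6% to 52.5% of all genes tested lay below 0, and the share of all genes below 0 in every pair was not counted. The labels do not say whether ETP and DN3 libraries came from the same mice. Many of the 46 genes also stood high or low together within a library, so neither the pairs nor the genes need be independent. The pair of DN3 after the Notch1 block had the lowest median, -0.34, and the medians of the other 5 lay between -0.26 and -0.09. With the Malat1 share of each library as a covariate the median remained below 0 in DN3 after the block (-0.35) and did not in the other pairs, at 0.42 in DN3 and 0.16 in ETP after pI-pC, 0.01 in DN3 and 0.03 in ETP after tamoxifen, and 0.20 in ETP after the block. The share was 0.961% to 1.33% in DeltaMxCre DN3 and 0.324% to 0.711% in MxCre DN3, so there the fit cannot well separate it from the deletion. In DN3 after the block the shares overlapped, at 1.17% to 1.33% in AntiNRR DN3 and 1.06% to 1.39% in IgG DN3. That left the covariate little difference between the groups to remove, so these fits do not set the pairs apart.

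The effects themselves were set against each other within the pI-pC and antibody table, and no member was called by edgeR or DESeq2 in any of the 4 tests. In DN3 cells, the deletion minus the block had a median of 0.16 over the 46 genes, with 1 higher at an unadjusted p under 0.05 (6.46% of all genes), and edgeR called 1.23% of all 13557 genes and DESeq2 2.54%. Ung was the member with the lowest p there, at 0.86 (SE 0.371, edgeR adjusted p = 0.333). Leaving out AntiNRR DN3 3 gave 1 member called and a median of 0.28, and the median was 0.33 without MxCre DN3 3 and ran from 0.04 to 0.33 over the 12 libraries left out in turn. In ETP, the deletion minus the block had a median of 0.09, which was 0.40 without MxCre ETP 3 and -0.26 without IgG ETP 3, the highest and lowest values when 1 library was left out. At an unadjusted p under 0.05, 1 was higher and 1 lower (3.11% and 3.29% of all genes), edgeR called 0.082% of all genes and DESeq2 0.602%, and Pole2 was at -1.44 (edgeR adjusted p = 0.646). The effect of the block in DN3 minus that in ETP had a median of -0.22, with 2 lower at an unadjusted p under 0.05 (2.62% of all genes). The median was -0.50 without IgG ETP 3, -0.47 without AntiNRR DN3 3 and 0.07 without AntiNRR ETP 2. There edgeR called 0% of all genes and DESeq2 0.0369%, and the lowest edgeR adjusted p of a member was 0.901. Among its members with the lowest p were Ung at -1.09 and Gins2 at -0.95. The effect of the pI-pC deletion in DN3 minus that in ETP had a median of -0.14, which was -0.49 without MxCre ETP 3, 0.06 without MxCre DN3 3 and 0.05 without MxCre ETP 1. With an unadjusted p under 0.05, 1 was higher and 1 lower (2.89% and 2.63% of all genes). There edgeR called 0.00746% of all genes and DESeq2 0.376%, and the lowest edgeR adjusted p of a member was 0.878. The falls called in DN3 cells after the Notch1 block are therefore not shown to differ from the values in ETP or after the pI-pC deletion. The tamoxifen deletion was not set against the block.

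Between the stages, calls among the replication genes came in 1 of the 2 control sets. In the IgG libraries 20 of the 46 fell and none rose in DN3 relative to ETP (edgeR), where edgeR called 14.7% of all 12720 genes, 7.6% lower. DESeq2 called 22 lower, where it called 9.5% of all genes lower. The median log2 fold change of IgG DN3 over IgG ETP was -0.65, with 44 of 46 below 0, and that of all genes was -0.01. For 26 members every DN3 library lay below every ETP library, where 16.6% of all genes did. The called genes came from 8 of the 9 roles, with 3 of 6 helicase subunits, 2 of 4 licensing genes, 3 of 6 of helicase activation, 2 of 7 of the clamp and loaders, 4 of 9 polymerase and primase genes, 2 of 4 of strand processing, 2 of 3 RPA subunits, 2 of 3 of fork and histone supply and 0 of 4 of chromatin and methylation copying.

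Gins2 had 21.2, 22.0 and 21.3 CPM in IgG DN3, against 41.1, 43.8 and 72.5 CPM in IgG ETP (-1.29, SE 0.239, edgeR adjusted p = 0.00176). Rpa2, which is phosphorylated when forks stall, had 47.1, 43.0 and 45.9 CPM in IgG DN3, against 80.4, 69.8 and 98.1 CPM in IgG ETP (-0.87, SE 0.172, edgeR adjusted p = 0.00275). Pold2 had 28.5, 25.6 and 32.6 CPM in IgG DN3, against 59.6, 43.7 and 60.2 CPM in IgG ETP (-0.91, SE 0.206, edgeR adjusted p = 0.00649). In these 3 genes the DN3 libraries were close together and all below the ETP libraries. Mcm5 had 179, 187 and 163 CPM in IgG DN3, against 275, 286 and 532 CPM in IgG ETP (-1.05, SE 0.219, edgeR adjusted p = 0.00742). Mcm3 had 265, 268 and 216 CPM in IgG DN3, against 366, 386 and 655 CPM in IgG ETP (-0.91, SE 0.196, edgeR adjusted p = 0.00746). Cdc6 had 44.9, 42.8 and 39.7 CPM in IgG DN3, against 56.5, 67.8 and 131 CPM in IgG ETP (-1.001, SE 0.258, edgeR adjusted p = 0.0192). IgG ETP 3 was by far the highest library in each of these last 3 genes.

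Tipin had 40.7, 52.0 and 43.8 CPM in IgG DN3, against 63.4, 88.7 and 103 CPM in IgG ETP (-0.90, edgeR adjusted p = 0.0046). Slbp had 65.6, 50.3 and 64.2 CPM in IgG DN3, against 92.9, 90.9 and 149.9 CPM in IgG ETP (-0.89, edgeR adjusted p = 0.00528). Pole, the catalytic subunit of polymerase epsilon, had 87.0, 81.6 and 94.6 CPM in IgG DN3, against 129, 151 and 256 CPM in IgG ETP (-1.03, edgeR adjusted p = 0.00557). All 3 were again separate between the stages. Rfc2 (-0.84), Pola2 (-0.67) and Rpa1 (-0.61) complete the 12 genes with the lowest p, with edgeR adjusted p between 0.0125 and 0.0168. The other 8 called genes were Fen1 (-0.97), the flap endonuclease, Pcna (-0.80), Pold1 (-0.59), Mcm6 (-0.68), Rnaseh2a (-0.70), Gins1 (-1.22), Gins4 (-0.73) and Cdt1 (-0.57). Of these, DESeq2 did not call Pcna (adjusted p = 0.0772).

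**Figure D4:**
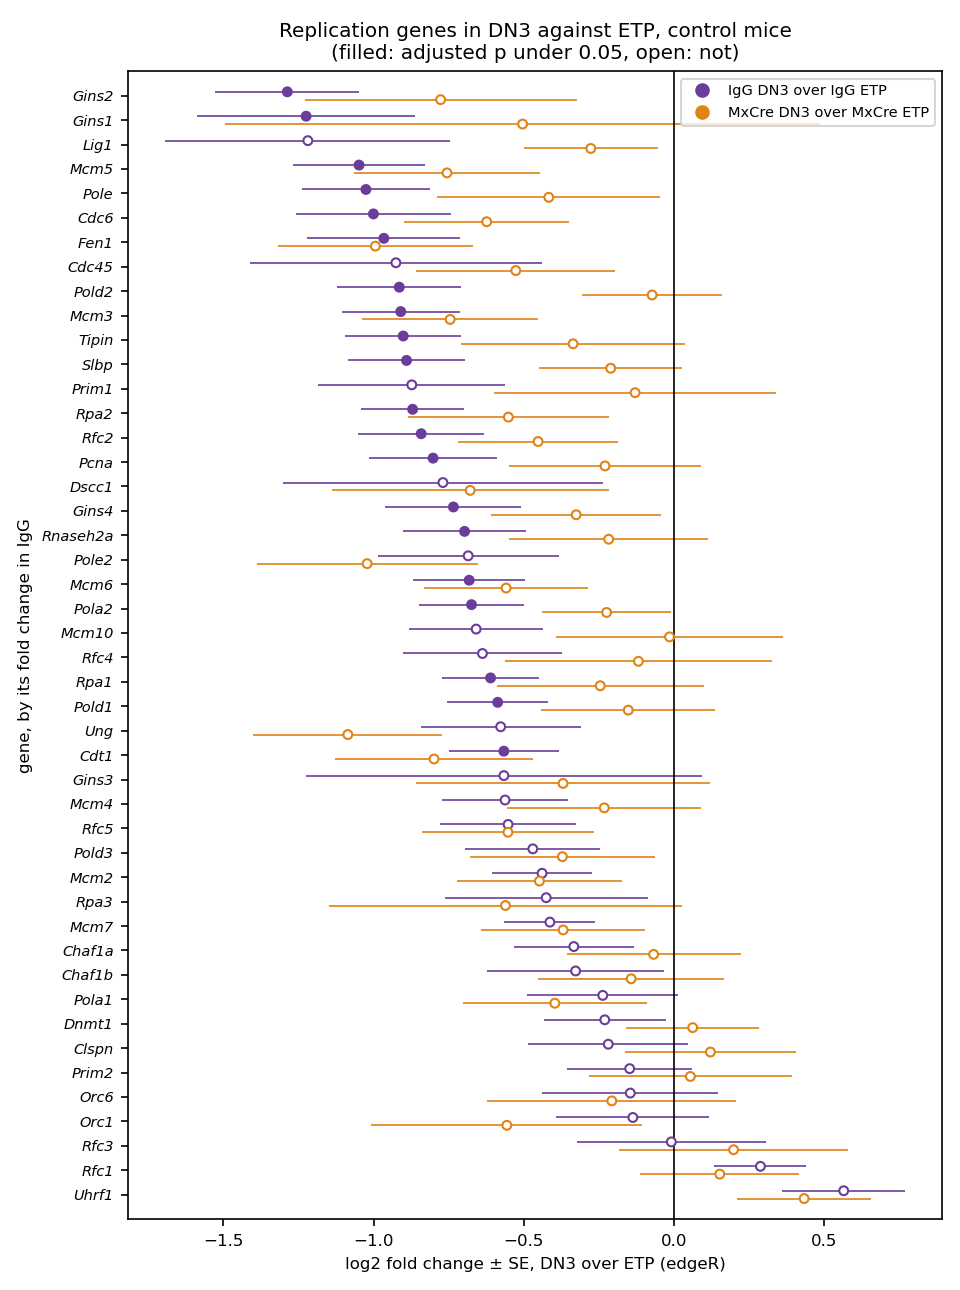
Log2 fold change of DN3 over ETP for each of the 46 genes with its SE, in IgG mice and in MxCre mice, with filled points where edgeR called the gene. Of the IgG points, 20 are filled and 44 lie below 0, none of the MxCre points is filled, and Uhrf1 is above 0 in both, at 0.56 in IgG mice and 0.43 in MxCre mice.

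Uhrf1 was 1 of the 2 members above 0 between the stages in IgG mice. It had 789, 759 and 736 CPM in IgG DN3, against 438, 370.2 and 737 CPM in IgG ETP, a log2 fold change of 0.56 that did not pass (SE 0.204, edgeR adjusted p = 0.0881). It was called higher without IgG ETP 3 (0.91, edgeR adjusted p = 1.66e-05), with scaling by total counts (0.69) and with a replicate block (0.63), and was not called in the other fits. Rfc1, the large clamp-loader subunit, was the other, at 0.29 (edgeR adjusted p = 0.245). In MxCre mice Uhrf1 had 814, 835 and 767 CPM in DN3, against 471, 509 and 778 CPM in ETP (0.43, edgeR adjusted p = 0.38), where 6 members lay above 0. In both pairs replicate 3 of the ETP libraries was at the level of the DN3 libraries and the others were below them. Expressed per kilobase of transcript, Uhrf1 was the highest of the 46 genes in IgG DN3 (179 CPM per kb) and in MxCre DN3 (189 CPM per kb), whereas Pcna was the highest in IgG ETP (168 CPM per kb), MxCre ETP (205 CPM per kb) and TamCre DN3 (337 CPM per kb). The members' median was 10.6 CPM per kb in IgG DN3, 16.1 in IgG ETP, 17.3 in MxCre DN3 and 23.2 in MxCre ETP. Dscc1, a subunit of an alternative clamp loader, was the lowest in IgG DN3 (1.27 CPM per kb) and IgG ETP (2.16 CPM per kb).

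The size of the stage difference rested in part on IgG ETP 3. Without that library the median of IgG DN3 over IgG ETP was -0.38, and 13 genes were called lower and 1, Uhrf1, higher. Leaving out IgG ETP 1 or 2 gave 20 and 25 called, and leaving out IgG DN3 1, 2 or 3 gave 11, 9 and 9. When the 4 control groups of the table shared 1 estimate of the spread, 2 were called (Slbp and Pold2). Mitosis genes were also lower in IgG DN3, with 14 of 25 called and a median of -1.18, among them cyclin B2 (Ccnb2, -1.81, edgeR adjusted p = 0.000128) and the spindle factor Tpx2 (-1.15). Without IgG ETP 3, 7 mitosis genes were called lower and 1 higher, with a median of -0.65, and leaving out IgG DN3 1, 2 or 3 gave 7, 7 and 4 lower. Of 19 nucleotide-supply genes 8 fell, led in size by thymidine kinase 1 (Tk1, -1.40), with both subunits of ribonucleotide reductase called (Rrm1 and Rrm2, each -0.89). Without IgG ETP 3, 5 nucleotide-supply genes were called, and leaving out IgG DN3 1, 2 or 3 gave 4, 5 and 3. The E2F list was split, with the repressor E2f8 lower (-1.48) and E2f4 higher (0.42), and so were the 35 other replication factors, with Chtf18 lower (-1.78) and Orc4 higher (0.67). Myeloid markers summed to 15.7 to 29.7 CPM in IgG DN3 and 83.0 to 344 CPM in IgG ETP. Mature T markers summed to 582 to 668 CPM in IgG DN3 and 965 to 1061 CPM in IgG ETP, and gamma-delta T markers to 57.0 to 70.6 CPM in IgG DN3 and 79.6 to 152 CPM in IgG ETP. The Malat1 share was 1.06% to 1.39% in IgG DN3 and 0.432% to 0.788% in IgG ETP, and the Rn45s share 2.75% to 3.74% in IgG DN3 and 8.92% to 13.8% in IgG ETP. None of these overlapped between the stages, and their part in the stage difference was not tested. Scaling by total counts moved the median of all genes to 0.10 and that of the members to -0.52, and turned the calls of all genes from 906 higher and 967 lower into 1263 higher and 728 lower.

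In MxCre mice the same contrast called no member by edgeR and 2 by DESeq2 (Ung and Fen1), where edgeR called 2.99% of all 12399 genes and DESeq2 called 4.89% lower. The median of MxCre DN3 over MxCre ETP was -0.35, with 40 of 46 below 0 and 7 lower at an unadjusted p under 0.05 (9.15% of all genes). Ung had 24.5, 28.9 and 39.1 CPM in MxCre DN3, against 45.3, 55.5 and 92.1 CPM in MxCre ETP (-1.09, SE 0.315, edgeR adjusted p = 0.109), without overlap. Fen1 had 90.3, 79.3 and 94.1 CPM in MxCre DN3, against 87.8, 182 and 246 CPM in MxCre ETP (-0.99, SE 0.323, edgeR adjusted p = 0.15). Pole2 had 18.2, 17.4 and 23.0 CPM in MxCre DN3, against 23.1, 34.7 and 58.8 CPM in MxCre ETP (-1.02, SE 0.368, edgeR adjusted p = 0.192). Fen1 overlapped between the stages, and Pole2 was separated by a gap between MxCre DN3 3 and MxCre ETP 1 that was far smaller than the spread, so 2 members were separated downward where 11% of all genes were. Mcm3 had 311, 313 and 488 CPM in MxCre DN3, against 417, 547 and 867 CPM in MxCre ETP (-0.75, SE 0.294, edgeR adjusted p = 0.232), with overlap. With the replicate number as a block, 4 members were called lower (Ung, Mcm3, Cdt1 and Mcm5, edgeR adjusted p between 0.0264 and 0.044). The labels do not say whether ETP and DN3 libraries of the same number came from the same mouse. Without MxCre ETP 3 the median was -0.06, without MxCre DN3 2 it was -0.20, and without MxCre ETP 1 or MxCre DN3 3 it was -0.54, with Fen1 called when MxCre ETP 1 was left out (edgeR adjusted p = 0.0118). With scaling by total counts the median was -0.19 while that of all genes was 0.14. Of the 25 mitosis genes, edgeR called none between the stages in MxCre mice, and none had an unadjusted p under 0.05. There 14 of the 25 lay below 0, with a median of -0.02. That median was -0.63 without MxCre DN3 3 and 0.22 without MxCre ETP 3. Of the 19 nucleotide-supply genes, 1 was lower and none higher at an unadjusted p under 0.05, where 9.15% of all genes were lower. The stage difference in IgG mice was not tested against that in MxCre mice, and the tamoxifen stages, made with different kits, were not compared.

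**Figure D5:**
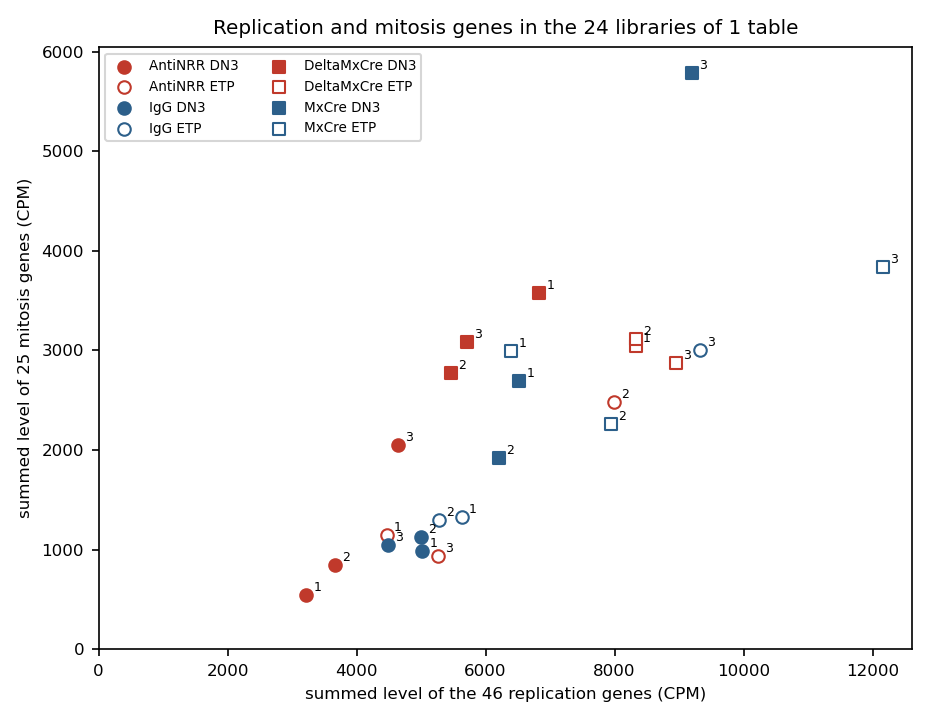
Summed CPM of the 46 replication genes (horizontal) against the summed CPM of 25 mitosis genes (vertical) in the 24 libraries of the pI-pC and antibody table, by group. AntiNRR DN3 1 has the lowest value on both axes (3218 and 543 CPM), and MxCre DN3 3 (9195 and 5786 CPM) and MxCre ETP 3 (12165 and 3840 CPM) lie far out.

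The libraries that stood high in replication genes were high over many roles at once. In IgG ETP 3, Mcm7 had 729 CPM where the other IgG ETP libraries had 523 and 461 CPM, Pcna 588 CPM where they had 331 and 293 CPM, and Lig1, the ligase of the lagging strand, 292 CPM where they had 96.3 and 109 CPM. MxCre ETP 3 had 1095 CPM of Mcm7 where the other MxCre ETP libraries had 581 and 653 CPM, and 151 CPM of Rpa2 where they had 53.4 and 107 CPM, but Lig1 was level across the 3 libraries at 215, 216 and 226 CPM. In AntiNRR DN3, Lig1 had 32.8, 68.6 and 95.1 CPM, against 76.0, 74.3 and 63.4 CPM in IgG DN3, so that the blocked libraries spanned the controls on both sides. Clspn, the adaptor that carries the fork signal to Chk1, had 19.2, 26.4 and 49.8 CPM in AntiNRR DN3, against 44.2, 41.2 and 32.1 CPM in IgG DN3, the same pattern. The plot of summed levels shows that replication and mitosis genes did not keep 1 ratio: MxCre ETP 3 had the highest replication sum of the 24 libraries, while MxCre DN3 3 had the highest mitosis sum.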

How the data were processed

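The deposited tables hold estimated counts per gene symbol that the authors had not scaled between libraries, and 0.712%, 1.19% and 0.762% of the values in the pI-pC and antibody, tamoxifen DN3 and tamoxifen ETP tables were further than 0.01 from a whole number. Per the submitters' processing notes, the tools were TopHat2 2.0.9, Cuffdiff 2.1.1, Bowtie2 2.1.0.0, Cufflinks and FastQC 0.10.0 with build mm10, in no stated order, and counting and strand settings are not given in the sources used here. Per the labels, the 3 sets used different kits and 10, 100 or 1 ng of RNA.

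Values were rounded to whole numbers. Each comparison used the 2 groups it names in R 4.3.3 with edgeR 4.0.16 (filterByExpr with a minimum count of 10 and total of 15, TMM, robust quasi-likelihood F test, prior count 0.125), adjusted over all genes tested. SE is the size of the log2 fold change over the root of F. Interactions were fitted over 4 groups. Levels are CPM with TMM over all libraries of a table, and per-kb levels use GENCODE M21 exon lengths. The scripts were tested on simulated data. Alternatives were DESeq2 1.42.0, its size factors, total counts, no filter, a mean of 10 counts, a replicate block, a shared spread, a Malat1 covariate and leaving out each library.

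The members, lists and tests were chosen with earlier results of these data known. Genes named in a comparison are those called, the 12 with the lowest p where more were, or the 4 with the lowest p where fewer than 4 were. Mcm7, Cdc6, Pcna, Pola1, Lig1, Rpa2, Chaf1a, Uhrf1 and Clspn were set as examples of the roles. Other values, such as those of Mcm2, Gins2 and Orc1 in DN3 after the block, were added after they were seen.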

Additional observations from a re-analysis of the deposited data

Results flagged for a closer look

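In the 24 groups of 4 values examined for a library apart from the rest, 3 were found, where chance gives about 1 in 20, and all 3 were in TamCre DN3. These values are not independent, since the mean over the 46 genes includes Gins2 and Gins4. The 3 are therefore not shown to exceed chance. Groups of 3 libraries were outside this rule. The mean log2(CPM + 1) over the 46 genes was 7.16 in TamCre DN3 2, with the other TamCre DN3 libraries between 7.34 and 7.36. Gins2 had 55.3 CPM in the same library, with the others between 61.9 and 62.6 CPM. Gins4 had 68.7 CPM in TamCre DN3 4, with the others between 71.0 and 71.2 CPM. Without TamCre DN3 2 the median of DeltaTamCre DN3 over TamCre DN3 was -0.16, and no member was called.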

How the results depend on the processing

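Counts of members called were within 1.5 times of the reported ones, and medians within 1 SD between libraries, under the alternatives other than those named here. For the stage contrast in MxCre mice, DESeq2 called 2, the replicate block 4, and a spread shared by 4 groups 1, against 0. The shared spread called 2 in IgG mice, against 20. With the Malat1 covariate the median became 0.42 in DN3 after pI-pC and 0.00820 in DN3 after tamoxifen, and Mcm7 and Chaf1b in DN3 after pI-pC reversed to 0.11 and 0.21. In DN3 after pI-pC the Malat1 share did not overlap between the groups, so that fit cannot well separate it from the deletion. The causes were not tested. Leaving out each library in turn gave 1 to 16 calls in DN3 after the block, 9 to 25 for the stage in IgG mice, 0 to 1 in MxCre mice, 0 to 1 for deletion minus block in DN3, and 0 in the other comparisons. The medians then ran from -0.52 to -0.25 (DN3 after the block), -0.39 to 0.00 (DN3 pI-pC), -0.17 to -0.06 (DN3 tamoxifen), -0.42 to 0.17 (ETP after the block), -0.29 to 0.20 (ETP pI-pC), -0.42 to -0.10 (ETP tamoxifen), -0.73 to -0.38 (stage, IgG) and -0.54 to -0.06 (stage, MxCre). Replicate numbers were not taken as pairs. No comparison had every same-number correlation over 0.1 (0.139, 0.0408, 0.127 and 0.162 in ETP after tamoxifen). In no comparison did each library correlate best with its own number. With 3 or 4 libraries a group, these correlations cannot exclude pairing. For the stage in MxCre mice they were 0.121, 0.0296 and 0.247, and there the replicate block gave 4 calls against 0. The replicate block gave 6 calls in DN3 after the block and 19 for the stage in IgG mice. Scaling by total counts turned the calls of all genes from 125 higher and 58 lower into 186 and 51 in DN3 after pI-pC, from 7 and 4 into 10 and 3 in DN3 after tamoxifen, and from 103 and 64 into 183 and 53 for deletion minus block in DN3, where the median of all genes moved to 0.10 and that of the members to 0.27. Of the named members, 33 values lost their call and 6 gained one. With 3 libraries a group, the median SE of a member was 0.287 in ETP after pI-pC and 0.294 in ETP after the block.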

Other observations

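The 19 genes of nucleotide supply were described above for the Notch1 block in DN3 cells and for the stages. Their median log2 fold change was also below 0 in the other pairs, at -0.33 in DN3 after pI-pC, -0.22 in DN3 after tamoxifen, -0.27 in ETP after the block, -0.24 in ETP after tamoxifen and -0.06 in ETP after pI-pC. At an unadjusted p under 0.05, 9 were lower in DN3 after pI-pC (7.83% of all genes), 9 in DN3 after tamoxifen (8.26%) and 6 in ETP after the block (2.86%), with 1 higher in the last. Impdh2, the rate-limiting enzyme of guanine nucleotide synthesis, averaged 163 ± 25.8 CPM in DeltaMxCre DN3 and 250.4 ± 25.9 CPM in MxCre DN3 (SD, n = 3 each, edgeR adjusted p = 0.0413). In DN3 after tamoxifen it averaged 402 ± 36.3 CPM in DeltaTamCre DN3 and 502 ± 50.7 CPM in TamCre DN3 (SD, n = 4 each, log2 fold change -0.32, edgeR adjusted p = 0.17). Shmt1, Shmt2, Gart and Mthfd1 were among the genes lower at an unadjusted p under 0.05 in each of these 3 pairs. After tamoxifen in DN3 none of the 19 was called by edgeR, and DESeq2 called 2 lower.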
